A study of Mus musculus with 2 samples.

Results

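The genes described here are the EGF receptor family, its ligands and the receptor inhibitor gene Errfi1, a list of 10 genes fixed by name: Egfr, Erbb2, Erbb3, Errfi1, Hbegf, Tgfa, Areg, Ereg, Btc and Egf. Of these, 9 had a named probe, each a single probe, among 16390 named genes on the array. Areg was not analysed here, because no probe carried its name. The genes were followed on 2 arrays that set MMP-14 knockout (KO) liver RNA against wild-type RNA in 2 colours. MMP-14 is a membrane-anchored metalloproteinase.

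The E14 Dlk+ array compared MMP-14 KO with wild-type cells that carry Dlk, a surface marker of hepatoblasts, and lack CD45, CD71 and Ter119. These cells were sorted from fetal liver, with RNA of 100000 cells from 3 livers per genotype, at an age given as E14 in the sample labels and E14.5 in the design text. The P1 liver array compared MMP-14 KO with wild-type whole liver, each a mixture of RNA from 2 livers. Its labels say P1 and its design text E18.5, and this conflict was not settled. The strain and the form of the deletion are not given in the sources used here. Wild-type RNA carried Cy5 and knockout RNA Cy3 each time, with no dye swap. Each comparison is 1 array of pooled livers, so values have no error between animals, no test was possible, and an effect of the dye on a probe cannot be told apart from genotype. In such RNA, fewer cells of a type and less RNA per cell cannot be told apart either.

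The EGF receptor is a tyrosine kinase that dimerises, with itself or with ErbB2 or ErbB3, when a ligand binds. Its ligands, among them EGF, TGF-alpha, HB-EGF, epiregulin and betacellulin, are made as membrane proteins and are released by proteases. In liver the receptor drives growth of hepatocytes, and Errfi1, which is induced by receptor signalling, binds the kinase domain of the receptor and inhibits it.

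Egfr was higher in the MMP-14 knockout on both arrays, and Errfi1 on the P1 liver array. Ratios are given as log2, knockout over wild type, after normexp background correction with an offset of 50 and loess normalisation within the array, unless the authors' deposited table is named. Egfr stood at 0.59 on the E14 Dlk+ array, 1.51-fold, and at 1.07 on the P1 liver array, 2.10-fold. Errfi1 stood at 0.09 and 1.02, the latter 2.03-fold. The ligand genes were dim on both arrays, except Hbegf, which was of middling brightness, and none of them reached 1.5-fold in these values. A signal was called detectable above the mean plus 2 SD of the blank spots of its channel.

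The upstream sequences of Egfr and Errfi1 are shown because these are the members that stood at 2-fold or more together on the P1 liver array. They are the 250 bases before an annotated start, from RefSeq on build GRCm38.p6, with matches to the GC box GGGCGG, on either strand, in capitals. Of the 10 genes, 7 had at least 1 window in that table. Errfi1 has 2 annotated starts there, and the downstream start is shown, chosen after its matches were seen.
Egfr, chr11:16751953-16752202, + strand: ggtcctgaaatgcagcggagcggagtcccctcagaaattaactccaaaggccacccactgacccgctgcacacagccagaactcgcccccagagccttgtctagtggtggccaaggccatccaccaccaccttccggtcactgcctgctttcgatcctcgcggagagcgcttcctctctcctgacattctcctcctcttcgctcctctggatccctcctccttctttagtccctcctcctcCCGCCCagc
Errfi1, chr4:150854820-150855069, + strand: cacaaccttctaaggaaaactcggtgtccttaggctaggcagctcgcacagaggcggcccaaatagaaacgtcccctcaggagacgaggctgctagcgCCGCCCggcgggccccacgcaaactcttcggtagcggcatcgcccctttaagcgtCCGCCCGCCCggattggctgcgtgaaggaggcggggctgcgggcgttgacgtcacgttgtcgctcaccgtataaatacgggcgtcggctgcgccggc
The Egfr window had a GC content of 60.8%, against a median of 52.4% over 32851 promoter windows of the same length. It held 1 GC box, whose first base lay 9 bases before the start, and no TATAAA. The Errfi1 window shown had a GC content of 64.8% and 3 GC boxes, the nearest 93 bases before the start and overlapping the next. It also held 1 TATAAA, 28 bases before the start, and 1 TGACGTCA, the cyclic AMP response element, 51 bases before the start. The window of the other Errfi1 start had a GC content of 38.0% and no match to any of these motifs. Of all windows, 32.7% held GGGCGG, 12.4% TATAAA and 1.55% TGACGTCA, each searched on both strands. The AP-1 site TGANTCA, found in 6.75% of windows, had no match in the windows of Egfr or Errfi1. These matches describe letters and say nothing of binding, which was not measured.

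Egfr, the receptor of EGF and the founding member of the family, was the only member at 1.5-fold or more on the E14 Dlk+ array. Its wild-type signal was 70.6 and its knockout signal 235, against thresholds of 44.3 and 85.1. These readings lay 28.4 and 69.8 blank SDs above the blank mean, at the 57.8th and 68.2nd percentile of probes in their channels, so the spot was of middling brightness. Its surroundings read 49.2 for wild type and 150 for knockout, so the spot stood 1.44 and 1.57 times above its local background. Before subtraction of the blank means (42.3 and 80.7), knockout readings over all probes here were a median 2.09 times wild-type readings. For Egfr the factor was 3.33. Its log2 ratio of 0.59 was exceeded by 35 of 12705 detectable genes. In the authors' deposited table Egfr stood at 1.10, past 2-fold, as did 1.26% of all genes on the higher side. Moving each channel by 2 SD of its blank spots moved that blank-subtracted ratio between 0.96 and 1.24, a range that covers noise at the blank level only.

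Of the 7 members detectable in both channels there, 1 was at least 1.5-fold higher and 0 were at least 1.5-fold lower, while 0.307% of all 12705 genes were higher and 0.22% lower by that size. With the genes split into 4 bins of brightness, 2 of 3176 in the bin of Egfr, 0.063%, were at least 1.5-fold higher. The ratio of Egfr lay just past the 1.5-fold line, at 0.58 on the log2 scale. It fell short of that line with normexp on the local background (0.31) and with an offset of 100 (0.42).

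In the P1 liver comparison the Egfr spot was brighter and its ratio larger. The wild-type signal was 363 and the knockout signal 1135, against thresholds of 50.5 and 87.0, at the 86.3rd and 92.9th percentile of probes. Before blank means (48.0 and 82.5) were subtracted, its knockout reading was 3.13 times its wild-type reading, where the median over all probes was 1.65. The log2 ratio of 1.07 was exceeded by 48 of 12715 genes, and the authors' deposited value was 1.30, in a table where 3.17% of genes were at least 2-fold higher. Blank noise moved the blank-subtracted ratio only between 1.29 and 1.32, since both readings lay far above the blank level. The surroundings of the spot read 114 for wild type and 486 for knockout, which that range does not cover. Normexp on the local background gave a ratio of 0.95, just under 2-fold.

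**Figure D1:**
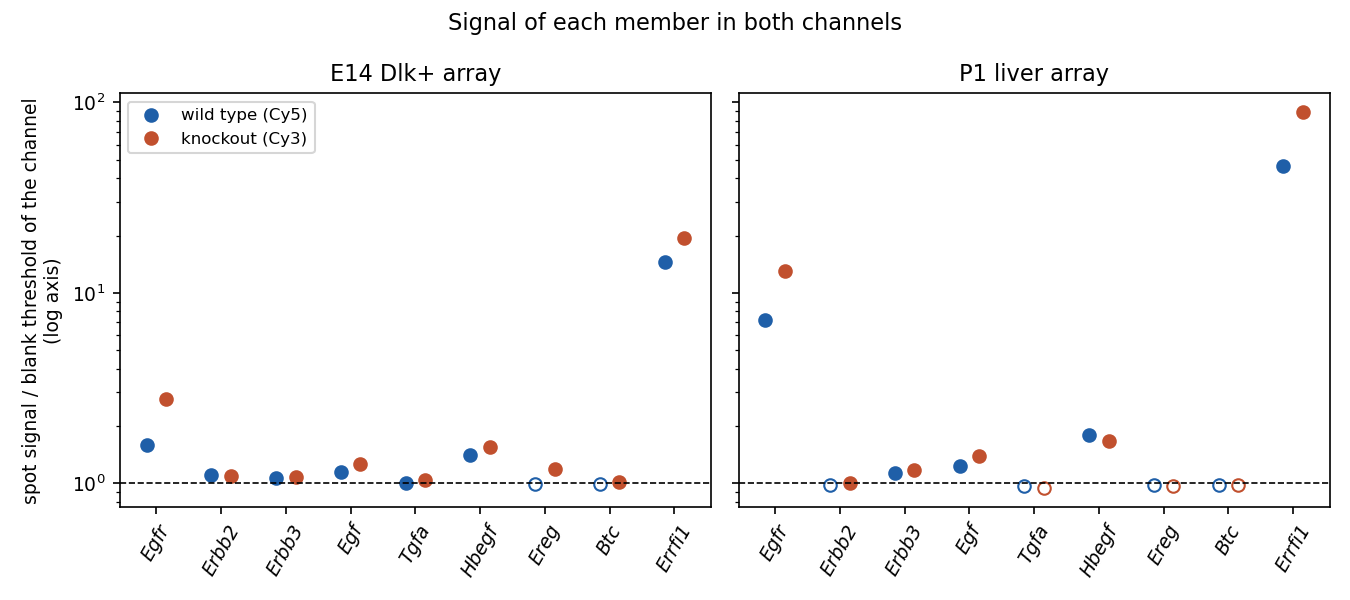
Spot signal of each of the 9 measured genes divided by the blank threshold of its channel (log axis) in the wild-type (blue) and knockout (red) channels of each array, with open circles for channels that are not detectable and a dashed line at the threshold. Errfi1 and, on the P1 liver array, Egfr stand well above the line, and most of the others lie near it. The arrays and channels were read separately, so heights are not levels to be compared between genes.

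Erbb2 and Erbb3, which encode the dimerisation partners of the receptor, were close to the detection limit. On the E14 Dlk+ array the signals of Erbb2 were 48.8 and 92.9 in the wild-type and knockout channels, and those of Erbb3 47.3 and 92.5. These readings lay between 5.03 and 6.54 blank SDs above the blank mean. Their ratios there were -0.09 and -0.05, and -0.45 and -0.12 in the authors' deposited table. Blank noise moved the blank-subtracted ratio of Erbb2 from -1.49 to 0.52 and that of Erbb3 from -1.28 to 1.07, so neither has a direction at this brightness. Erbb3 read 57.0 and 102 on the P1 liver array, with a ratio of 0.14 and an authors' deposited value of 0.68. Its blank noise range, from -0.04 to 1.43, included 0. Erbb2 read 49.7 in the wild-type channel, below its threshold, and 87.7 in the knockout channel, just above it, so it has no usable ratio there.

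Among the ligand genes, Hbegf was the brightest on both arrays against its thresholds, at the 53.1st percentile of probes in both E14 channels and at the 57.8th and 60.7th in the P1 liver channels. Hbegf, which encodes heparin-binding EGF-like growth factor, had a wild-type signal of 62.5 and a knockout signal of 132 on the E14 Dlk+ array, with a ratio of 0.01. In P1 liver it read 91.0 and 146, with a ratio of 0.12, and the authors' deposited value was also 0.12. Both blank noise ranges included 0, from -0.26 to 0.27 and from -0.07 to 0.30, so no difference was detectable for this gene. With the local background subtracted its P1 ratio was 0.73.

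Egf, the gene of the epidermal growth factor precursor, had the largest ratio of the ligand genes on the P1 liver array. Its signals were 62.6 for wild type and 122 for knockout, with a ratio of 0.33 that was exceeded by 1243 genes. The authors' deposited value was 0.99, with a blank noise range from 0.60 to 1.41 that did not reach 0. The ratio moved with the handling of dim spots, from 0.21 with an offset of 100 to 1.10 with the blank mean subtracted and 1.26 with the local background subtracted. On the E14 Dlk+ array Egf read 51.0 and 108, with a ratio of 0.04, and its blank noise range, from -0.27 to 0.88, included 0.

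Tgfa, Ereg and Btc, the genes of transforming growth factor alpha, epiregulin and betacellulin, were near or below the detection limit, except Ereg in the knockout channel of the E14 Dlk+ array. Tgfa read 44.3 and 88.3 on the E14 Dlk+ array, the first barely above the threshold, and its ratio of -0.01 against an authors' deposited value of 0.55 has no direction. Ereg was detectable only in the knockout channel there, with signals of 43.9 and 101 that lay 1.62 and 9.25 blank SDs above the blank mean. Btc was detectable only in the knockout channel as well, at 86.9 against a threshold of 85.1. No ratio is given for either gene. None of these 3 genes was detectable in either channel of the P1 liver array, with wild-type signals from 49.0 (Tgfa) to 49.5 (Btc) and knockout signals from 82.0 (Tgfa) to 84.8 (Btc).

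Errfi1, which encodes the feedback inhibitor of the receptor, was the member with the brightest spot. On the E14 Dlk+ array its wild-type signal was 641 and its knockout signal 1649, at the 93.0th and 93.2nd percentile of probes. Its ratio was 0.09, and 0.04 in the authors' deposited table, and median centring in place of loess gave 0.79. In P1 liver it read 2351 and 7722, at the 97.5th and 98.6th percentile, with surroundings at 1367 and 4029. The ratio there was 1.02, exceeded by 64 genes, and the authors' deposited value was 1.29. With a spot this bright the blank noise range was only 1.29 to 1.30. Under all 10 alternatives its P1 ratio lay between 1.02 and 1.55.

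Detectable in both channels of the P1 liver array were 5 members. Of these, Egfr and Errfi1 were higher by 2-fold or more and 0 were lower by that size, while 0.558% of all 12715 genes were higher and 1.45% lower. Both lie in the brightest of the 4 bins, where 1.57% were higher. Every one of the 5 had a ratio above 0 in the main values and in each of the 10 alternatives, but those of Erbb3 and Hbegf were within blank noise. Over all genes 49.6% were above 0 in the main values. Members that were too dim in either channel have no usable ratio, so this says nothing of Erbb2, Tgfa, Ereg or Btc.

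**Figure D2:**
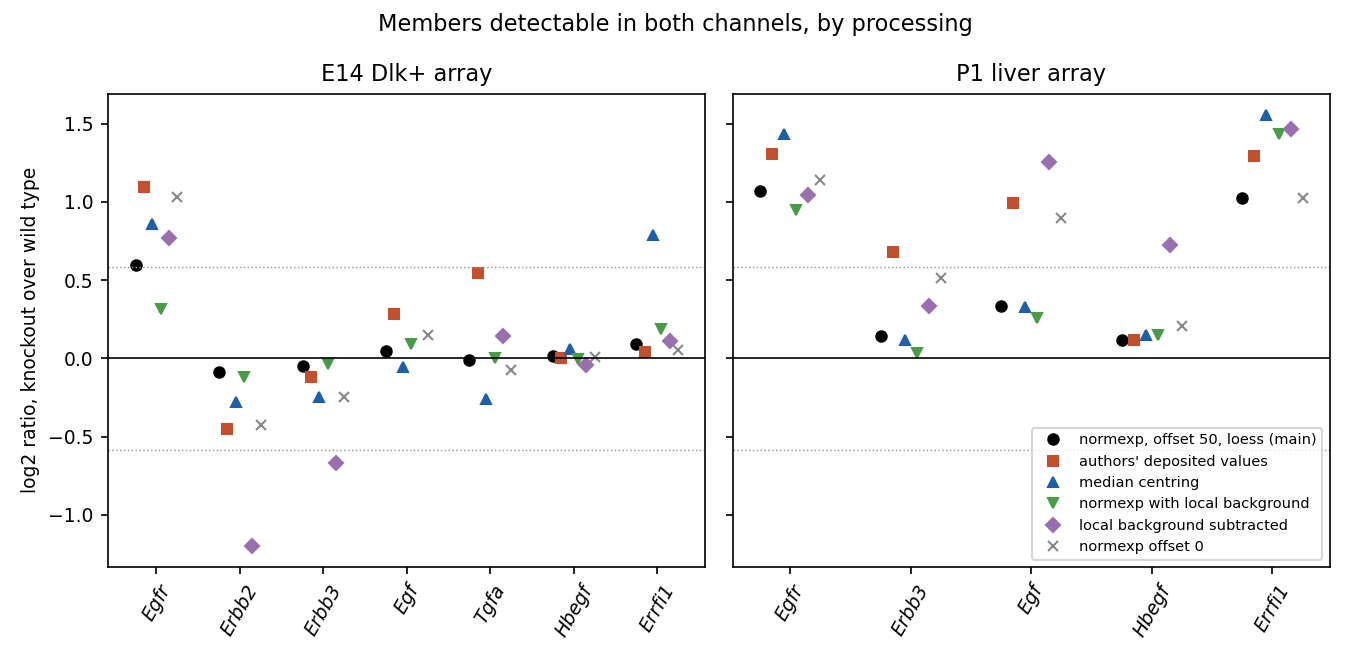
Log2 ratio of knockout over wild type of the genes detectable in both channels of each array, by processing (symbols), with dotted lines at 1.5-fold. Egfr lies above 0 on both arrays under every processing shown, Errfi1 lies above 1 on the P1 liver array only, and the dim genes Erbb2, Erbb3, Egf and Tgfa spread widely with the handling of the background.

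Set side by side, Egfr had ratios of 0.59 and 1.07 on the E14 and P1 arrays, Errfi1 0.09 and 1.02, Egf 0.04 and 0.33, Hbegf 0.01 and 0.12, and Erbb3 -0.05 and 0.14. The arrays have no replicates and carried different material, so these differences were not tested. Of 12005 genes detectable on both arrays, 2 were at least 1.5-fold higher on both, Egfr and Supt16, a histone chaperone subunit gene. Egfr was also among such genes in 8 of 10 alternatives, in which their number ran from 1 to 863. It was not among them with the local background in normexp, with 257 such genes, or with an offset of 100, with 1. Knockout RNA carried Cy3 each time, and an effect of the dye on this probe cannot be told apart from genotype.

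**Figure D3:**
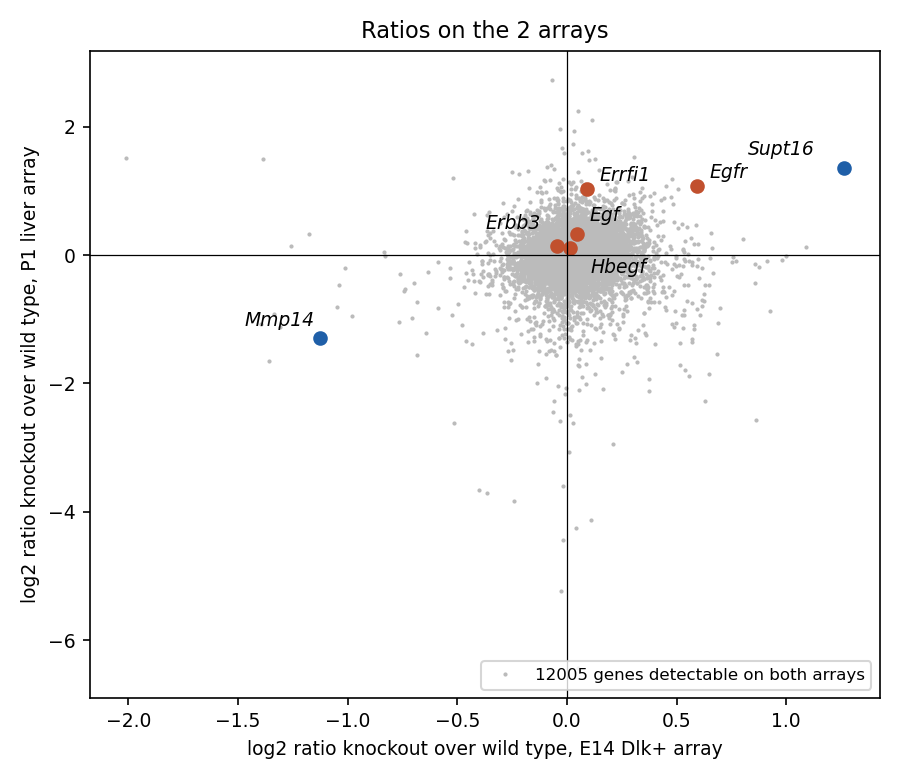
Log2 ratio of knockout over wild type on the E14 Dlk+ array (horizontal) and the P1 liver array (vertical) for 12005 genes detectable on both (grey), with the measured members in red and Mmp14 and Supt16 in blue. Egfr lies to the upper right at 0.59 and 1.07, Errfi1 near the vertical axis at 0.09 and 1.02, and the other members within the cloud.

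The genes whose pair of ratios lay nearest to that of Egfr, among 8732 genes above the 25th percentile of brightness on both arrays, were Esf1 (0.51 and 1.03), Cycs, the cytochrome c gene (0.45 and 1.07), and Ndufb4, a subunit gene of respiratory complex I (0.48 and 1.18). The distances were 0.10, 0.14 and 0.16 in log2 units over the 2 arrays. Nearest to Errfi1 were Pdk4, an inhibitory kinase gene of pyruvate dehydrogenase (0.08 and 1.03), Zpr1 (0.09 and 0.999) and Ppat, the gene of an early enzyme of purine synthesis (0.07 and 1.04), within 0.03. A likeness over 2 values describes these arrays only.

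Mmp14, the targeted gene, had ratios of -1.13 and -1.30 on the E14 and P1 arrays, and of -2.13 and -2.83 in the authors' deposited table. With normexp on the local background they were -0.45 and -0.27. Markers of the labelled material were bright. Dlk1 read 4971 for wild type and 11869 for knockout on the E14 Dlk+ array, and Alb 54365 and 44636 on the P1 liver array. Over all probes, the median signals were 58.5 and 122 on the first array and 73.4 and 113 on the second, little above the thresholds.

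Markers of other cells moved beside Egfr. On the E14 Dlk+ array, 11 of 12 detectable stellate and fibroblast markers were above 0, against 53.1% of all genes. Of these markers 5 were at least 1.5-fold higher, against 0.307% of all genes. Their median was 0.50, against 0.01 over all genes. Their summed signal above the blank mean was 5731 for wild type and 20809 for knockout, 3.63 times as high, and all 12 were detectable in both. The same unnormalised ratio of sums was 2.64 for erythroid and 2.31 for endothelial markers, and 2.77 for the members, whose sums are mostly Errfi1. It was 1.37 for mesothelial markers and 1.13 for hepatoblast and hepatocyte markers. The hepatocyte sums are mostly Alb, Afp, Ttr and Apoa1, whose readings lie at or near the top of the range, so the 1.13 cannot be read as a change. Over the 12 lists other than stellate and hepatocyte the ratio of sums ran from 1.37 to 2.85, with a median of 2.55. The median of 2.09 over all probes was taken without blank subtraction and is not on this scale. Of 6 mesothelial markers 2 were at least 1.5-fold lower, Upk3b (-1.01) and Podxl (-0.64), against 0.22% of all genes.

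The brightest hepatoblast markers cannot be read as changed. Alb read 37881 for wild type and 37592 for knockout on the E14 Dlk+ array, Afp 35570 and 36583, Ttr 35758 and 34246, and Apoa1 23074 and 33338. All but the wild-type reading of Apoa1 lie at the top of the range, where readings were written as whole numbers. Such readings ran from 28390 upward for wild type and from 32697 for knockout, on 13 and 22 probes. The wild-type and knockout readings of Alb, Afp and Ttr were nearly equal there, while the median probe read 2.09 times higher in the knockout channel, so their ratios are not used. The dimmer markers Dlk1 (-0.03) and Hnf4a (-0.12) lay near 0. The part of any of these markers in the ratio of Egfr was not tested.

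The wild-type channel of the P1 liver array carried lung genes. All 12 lung epithelial markers were detectable there and 8 of them in the knockout channel, and their signals above the blank mean summed to 37629 and 389. Sftpb, Nkx2-1, Lamp3 and Foxj1 were not detectable in the knockout channel. Of 12 hepatocyte markers 3 were at least 1.5-fold higher, Tdo2 (1.86), Tat (1.73) and Cps1 (1.06), against 2.85% of all genes. By the same size 4 were lower, against 4.12% of all genes. These were Tbx3 (-0.90), and Alb, Apoa1 and Ttr, whose readings are given next. The median of the list was 0.12. Alb (54365 and 44636), Apoa1 (46402 and 39764) and Ttr (40937 and 22831) read at or near the top of the range, with whole-number readings from 37242 and 33958 upward. So did Afp in the knockout channel, at 51546. The ratios of these genes are not read as changes. The count of lower markers includes Alb, Apoa1 and Ttr, and the median includes Afp as well. Of 12 stellate and fibroblast markers 10 were below 0, on an array where 49.6% of all genes were above 0. Their median was -0.14. At least 2-fold lower were 3, Acta2 (-2.11), Col3a1 (-1.93) and Tagln (-1.54), against 1.45% of all genes. The other markers of this list ran from Col1a1 (-0.58) to Lhx2 (0.26). Colec10, the highest of the list on the E14 Dlk+ array (1.09), stood at 0.13 here. None of 7 endothelial markers was above 0 and 4 were at least 1.5-fold lower. Of 7 erythroid markers 1 was above 0 and 3 were at least 1.5-fold lower. The share over all genes at least 1.5-fold lower was 4.12%. The part of these markers in the ratios of Egfr and Errfi1 was not tested.

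Among the other genes of the pathway that were detectable, in the main values only Myc on the P1 liver array was at least 1.5-fold higher, and none was on the E14 Dlk+ array. In the remaining receptor and ligands, 4 of 6 were detectable on the E14 Dlk+ array, with Epgn, the epigen gene, at 0.07, and the neuregulin genes Nrg2 at -0.04 and Nrg4 at -0.05. Erbb4, the receptor gene for neuregulins, stood at -0.10. In P1 liver 3 were detectable, Nrg4 at 0.47, Erbb4 at 0.13 and Epgn at 0.06. None of them was at least 1.5-fold changed on either array in these values. In the authors' deposited table Epgn stood at 1.05 and 0.69 on the E14 and P1 arrays. Nrg4 was the brightest of these on the P1 liver array against its thresholds, with signals of 129 and 253, and the authors' deposited value for it was 0.63.

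Genes of ligand shedding had a small positive median on the E14 Dlk+ array and a negative one on the P1 liver array, with genes on both sides of 0 on each. Of 8 detectable genes, 6 were above 0 on the first, against 53.1% of all genes, with a median of 0.10 and none at 1.5-fold. The highest were the protease genes Adam9 (0.34) and Adam10 (0.26), and the lowest Adam17 (-0.16), which encodes the main sheddase of TGF-alpha and HB-EGF, and Adam12 (-0.06). In P1 liver 2 of 8 were above 0, against 49.6% of all genes, with a median of -0.23 against 0.00 over all genes. At least 1.5-fold lower were 2, where the share over all genes was 4.12%. These were Timp3, which inhibits ADAM17, at -1.38, and Rhbdf1, a rhomboid pseudoprotease gene, at -0.76. The highest were Rhbdf2 (0.16) and Adam9 (0.03).

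The genes that relay the signal and those that restrain the receptor had medians close to 0 in the main values. Of the relay genes, 13 of 23 were above 0 on the E14 Dlk+ array and 4 of 22 on the P1 liver array. The shares above 0 over all genes were 53.1% and 49.6%. The relay medians were 0.00 and -0.08, and 0.43 and 0.065 under median centring. The ends were Shc1 (0.27), Akt1 (0.24), Mapk3 (-0.19) and Stat3 (-0.19) on the first. On the second they were Araf (0.25), Sos1 (0.24), Gab1 (-0.93) and Mapk3 (-0.55). Gab1, the docking protein gene of the pathway, was the only relay gene at 1.5-fold or more in the main values. By that size, 6 relay genes were higher on the E14 Dlk+ array with median centring, and 2 with the local background subtracted. On the P1 liver array 1 was higher and 2 lower in the authors' deposited table, and 2 and 4 with the local background subtracted. Among restraint genes, 13 of 17 were above 0 on the E14 Dlk+ array, with Dusp6 (0.30), an ERK phosphatase gene, and Rasa1 (0.16) highest and Lrig1 (-0.07) and Spry4 (-0.03) lowest. In P1 liver 6 of 17 were above 0, with Socs5 (0.20) and Cblc (0.19) highest and Spry1 (-0.45) and Ptpn1 (-0.27) lowest. The medians were 0.03 and -0.04, the latter 0.033 under median centring, and none of the 17 reached 1.5-fold on either array in the main values. By that size, 4 were higher on the E14 Dlk+ array with median centring. On the P1 liver array 3 were higher and 2 lower in the authors' deposited table and with the blank mean subtracted, 4 and 2 with the local background subtracted, and 2 and 1 with an offset of 0.

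Genes that respond to ERK, a kinase downstream of the receptor, were mostly lower on the P1 liver array, where Egfr and Errfi1 were higher. Of 12 detectable genes 1 was above 0, against 49.6% of all genes. The median was -0.54, and 6 were at least 1.5-fold lower, against 4.12% of all genes. The lowest were the immediate early genes Ier3 (-1.35), with signals of 408 and 238, and Fos (-1.30), with 230 and 140. The highest were Myc (0.70), with 164 and 378, the 1 gene at least 1.5-fold higher, against 2.85% of all genes, and Etv4 (-0.01). On the E14 Dlk+ array 8 of 12 were above 0, against 53.1% of all genes, with a median of 0.08 and none at 1.5-fold. The highest there were Dusp1 (0.52) and Phlda1 (0.27) and the lowest Etv5 (-0.11) and Etv4 (-0.03). On the P1 liver array the lung markers summed to 37629 for wild type and 389 for knockout, and 0 of 7 endothelial, 1 of 7 erythroid and 2 of 12 stellate and fibroblast markers were above 0. Their part in the ratios of the ERK response genes was not tested.

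**Figure D4:**
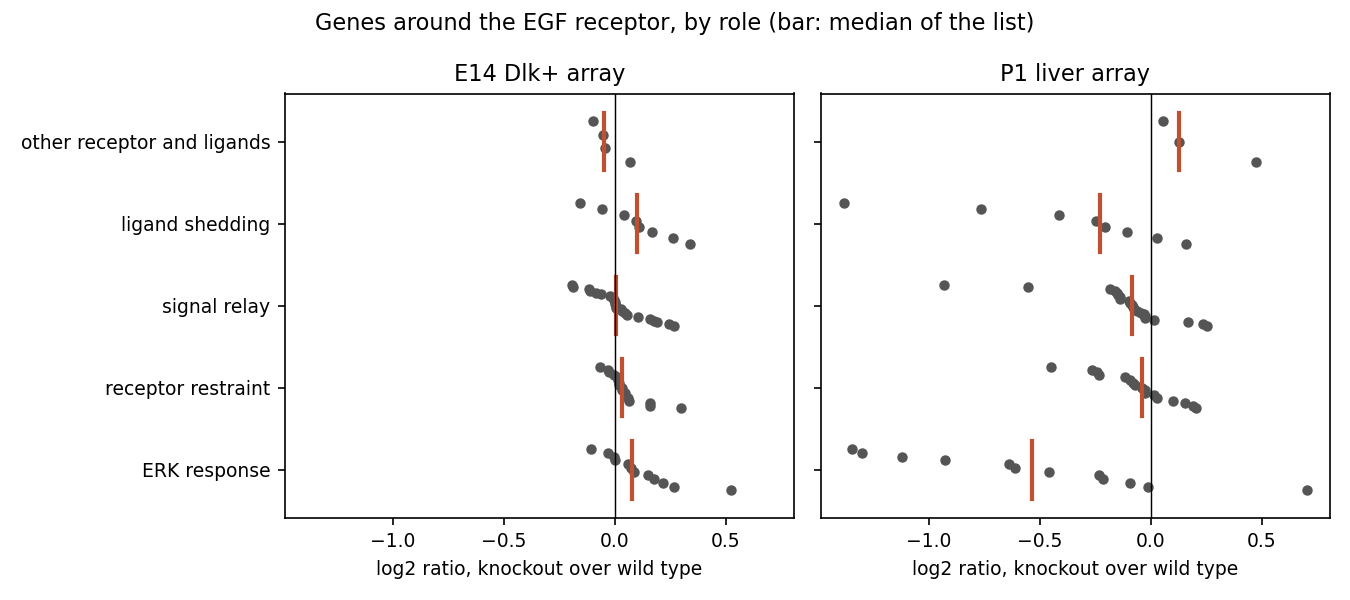
Log2 ratio of knockout over wild type (horizontal) of genes detectable in both channels in 5 lists around the receptor (rows), on each array, with a red bar at the median of each list. On the P1 liver array the ERK response genes lie lowest, with a median of -0.54, and on the E14 Dlk+ array all 5 medians lie between -0.05 and 0.10.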

How the data were processed

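The scanner files deposited by the authors give, per the file headers, the median intensities of each spot and of its surroundings at both wavelengths, not normalised. The deposited log2 values of the authors matched the knockout over wild-type ratio after subtraction of the trimmed blank mean, with correlations of 0.999995 and 1. Their column medians were 1e-06 and -2.74e-05, so scale, centring and direction are known. Per the labels' protocols, total RNA was amplified into amino allyl aRNA and then dye-coupled.

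The R package limma (version 3.58.1, R 4.3.3) gave the ratios, with normexp without the local background columns, offset 50, loess with control spots at weight 0, and means over spots and probes. The offset shrinks ratios of dim genes. Thresholds are the mean plus 2 SD of the 2736 blank spots after 5 percent was removed at each end. Probes with a quality flag were left out, 4 on the first array. Gene names came from the platform annotation, for 16631 probes with 1 symbol, 3947 of them updated through a RefSeq table of GRCm38.p6. The code was tested on simulated data.

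The members and gene lists were chosen with earlier results of these data known. Named genes were the 10 members, Mmp14, the 2 highest and 2 lowest genes of each of 5 pathway lists per array, and the 3 genes nearest to Egfr and to Errfi1. Supt16 and the marker genes given with values lie outside this rule and were chosen after their values were seen. Marker lists covered 8 cell types, of which those of bile duct, mesothelium, endothelium, macrophages and erythroid cells had medians of -0.04, -0.17, -0.05, -0.07 and -0.01 on the E14 Dlk+ array, and -0.13, -0.64, -0.67, -0.14 and -0.57 on the P1 liver array. The number of arrays limits precision. The 10 alternatives varied background, normalisation, offset, filter and probe rule.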

Additional observations from a re-analysis of the deposited data

Results flagged for a closer look

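Ratios that lay on opposite sides of 0 on the 2 arrays are listed here, as P1 minus E14, and none of the differences was tested because each rests on 1 array per side. Erbb3 differed by 0.19 (-0.05 and 0.14), with a blank noise range that included 0 on both arrays. The median of the ERK response genes differed by -0.62 (0.08 and -0.54) and that of the ligand shedding genes by -0.33 (0.10 and -0.23). The medians of signal relay genes, differing by -0.087 (0.003 and -0.084), and of restraint genes, by -0.073 (0.032 and -0.041), lay close to 0 on both.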

How the results depend on the processing

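Egfr kept a ratio above 0 in all 10 alternatives on both arrays, from 0.31 to 1.12 on the E14 Dlk+ array and from 0.95 to 1.44 on the P1 liver array. No ratio past 1.5-fold changed sign. On the E14 Dlk+ array 1 member was at least 1.5-fold changed; there were 0 with an offset of 100 or with the local background in normexp, 2 with median centring (Egfr, Errfi1) or with the blank mean subtracted before loess (Egfr, and Erbb2 lower), and 3 with the local background subtracted (Egfr, and Erbb2 and Erbb3 lower). At 2-fold, 0 members became 1 with an offset of 0, in the authors' values and with the blank mean subtracted (Egfr), and 1 with the local background subtracted (Erbb2, lower). On the P1 liver array 2 members at 1.5-fold became 4 in the authors' values and with the blank mean subtracted (Erbb3 and Egf added) and 4 with the local background subtracted (Hbegf and Egf added), and 3 with an offset of 0 (Egf added). There, 2 at 2-fold became 3 with the blank mean or the local background subtracted (Egf added) and 1 with the local background in normexp (Errfi1). The median of the 5 members there, 0.33, was 0.21 with an offset of 100, 0.90 with an offset of 0, 0.99 in the authors' values, 1.03 with the blank mean and 1.04 with the local background subtracted, and 0.12 without a filter, over 9 members. Median centring moved the median of all genes to 0.29 on the E14 Dlk+ array. There Errfi1 stood at 0.79, the ERK response median at 0.74 and the relay median at 0.43. It turned the P1 medians of relay (0.065) and restraint genes (0.033) positive. The cause of these shifts was not tested. No paired analysis was possible because each comparison is 1 array. Signal over the blank level limits Erbb2, Erbb3, Egf, Tgfa, Ereg and Btc. The local background also lay close to some brighter spots. Hbegf read 1.13 and 1.19 times its local background in P1 liver, and Egfr 1.44 and 1.57 times on the E14 Dlk+ array.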
